A study of Mus musculus with 43 samples.

Results

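The splicing factor gene families are described here through the 36 measured genes whose mouse symbol begins with Hnrnp, Srsf, Snrp, Sf3a, Sf3b, Prpf or U2af, out of 10127 genes in the expression table. Pseudogenes were left out. The annotation holds 69 such genes, and the other 33, Snrpn among them, were not analysed here. By family, 12 of 20 annotated Hnrnp genes, 6 of 11 Srsf, 5 of 13 Snrp, 5 of 9 Sf3a and Sf3b (Sf3 below), 3 of 3 U2af and 5 of 13 Prpf genes were measured. The rule used symbols only, although the families were picked with earlier results of these data known. All 36 passed the filter on low values in every comparison.

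RNA was sequenced from 4 hypothalamic nuclei of adult male C57/BL6 mice in which the Snord116 small nucleolar RNA cluster was deleted on the paternal allele. The nuclei were PVN (paraventricular), ARC (arcuate), VMH (ventromedial) and DMH (dorsomedial), each cut from frozen sections by laser capture, and mice were either fed ad libitum or fasted for 24 hours. Every library carried the deletion, with no wild-type library analysed here, and the deletion was congenital. The 41 libraries came from 12 mice, 6 fasted and 6 fed, in 3 batches with both states in each. Fasted and fed libraries numbered 4 and 5 in ARC, 5 and 6 in DMH, 5 and 5 in PVN, and 6 and 5 in VMH.

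Splicing removes introns from pre-mRNA in the spliceosome, which is built stepwise from small nuclear ribonucleoproteins (snRNPs). The U1 snRNP pairs with the 5′ splice site, the U2AF heterodimer binds the polypyrimidine tract and the AG of the 3′ splice site, the SF3A and SF3B complexes hold the U2 snRNP on the branch point, and the U4/U6.U5 tri-snRNP then joins. SR proteins, encoded by Srsf genes, mostly promote exon inclusion from exonic enhancers, whereas hnRNP proteins coat nascent transcripts and often oppose inclusion. Neurons make unusually wide use of alternative splicing.

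Depth, read from the size of 1 read in the low values, was 1.94 to 8.23 M reads a library with a median of 4.10 M. The unit is CPM, a gene's count scaled to the mapped reads of its library. No member was at 0 in any library (0 of 1476 values), and the fewest reads behind a member in a library were 5, for Srsf4. Of the 8 measured genes listed as markers of a nucleus, 7 separated it from the others in every library. Avp lay between 395 and 1475 CPM in PVN and at 10.04 CPM or less elsewhere, Fezf1 between 172 and 256 CPM in VMH and at 21.9 or less elsewhere, Crabp1 between 129 and 269 in ARC and at 10.1 or less elsewhere, and Npvf between 56.5 and 225 in DMH and at 6.3 or less elsewhere. The exception was Gpr50, listed for DMH, at 104.9 to 229 CPM in DMH and 18.9 to 106.1 in ARC. The tissue is a mixture of cells, so fewer cells of a type and less RNA per cell cannot be told apart.

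Several members share sequence with other genes, which the counting could split or merge. For 14 of 36 members over 10% of the 50-base runs of their exons and transcripts also occur in another annotated gene, with the highest shares in Hnrnpf (61.9%), Sf3b4 (45.3%), U2af1l4 (42.4%), Srsf4 (39.5%), Hnrnpa1 (28.2%) and Hnrnpa3 (27.1%). For Hnrnpa1 19 of the 20 other genes were pseudogenes, and for Hnrnpa3 41 of 46. U2af1l4 shares 65.6% of its exon bases with the same-strand gene Gm49396, and Srsf4 shares 43.0% with the antisense gene Gm12992. For Hnrnpc the share of runs was 8.28%, in 2 pseudogenes. Whether strand was used in counting is not given in the sources used here, so values of these genes are uncertain.

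Levels of the members spanned a wide range within the Hnrnp and Srsf families. To compare genes, mean CPM over the 41 libraries was divided by the length of the principal transcript in kb, a measure that depends on the transcript chosen. On this scale the highest levels were those of Srsf2 (152 CPM per kb), an SR protein needed for constitutive splicing, and of Hnrnpa3 (147) and Hnrnpa1 (126), which bind exonic and intronic silencers. Hnrnpdl (74.6), Srsf3 (63.4), Hnrnpc (63.3) and Hnrnpu (55.8) followed.

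The measured Snrp genes lay close together on the same per-kb scale. Snrpd2, Snrpe and Snrpg, members of the Sm ring around the spliceosomal RNAs, reached 32.9, 31.2 and 25.04 CPM per kb, Snrpa of the U1 snRNP reached 31.3, and Snrpa1 of the U2 snRNP reached 21.9. The U2af genes lay between 11.9 (U2af1) and 16.1 (U2af1l4). Sf3 genes ran from 24.6 (Sf3b6) down to 4.4 (Sf3b5), and Prpf genes from 23.4 (Prpf39) to 7.4 (Prpf4). Thus the per-kb levels of the Hnrnp and Srsf families overlapped all of the others, and the lowest Srsf member, Srsf4 at 5.7, was near the bottom of the whole set.

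**Figure D1:**
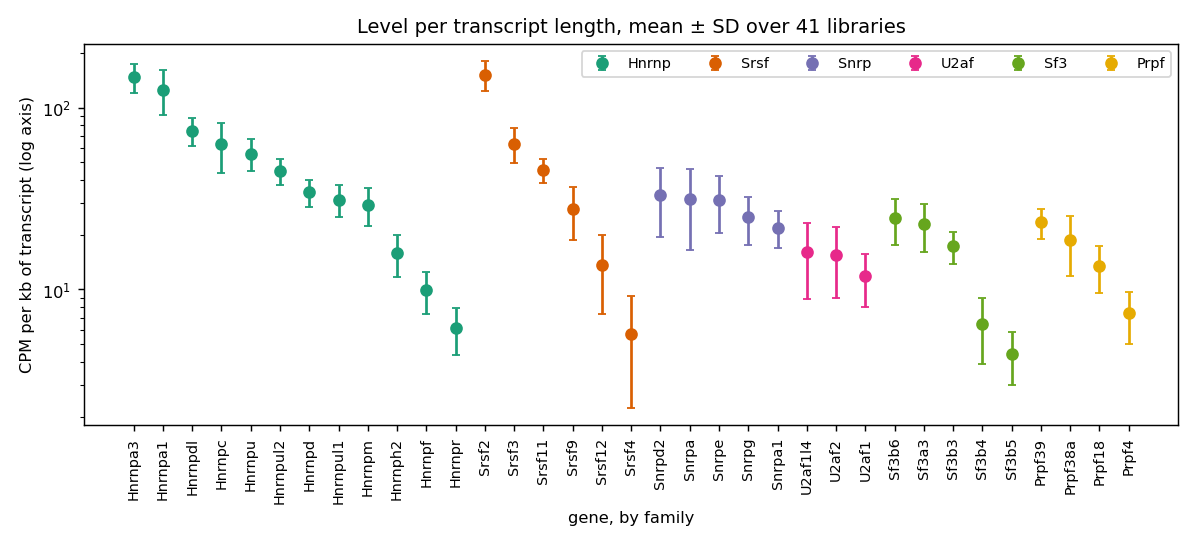
Level of 35 of the 36 members in CPM per kb of principal transcript on a log axis, as mean ± SD over 41 libraries and coloured by family. Srsf2, Hnrnpa3 and Hnrnpa1 lie above 100, and Sf3b5 at 4.4 is lowest.

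Spread over libraries also differed among members. The coefficient of variation of CPM over the 41 libraries was lowest for Srsf11 (15.5%) and stood at 16.5% for Hnrnpul2. It was highest for Srsf4 (60.7%), Snrpa (47.0%) and Srsf12 (46.2%). In plain CPM, Hnrnpu, a nuclear matrix and RNA-binding protein, was the most abundant member at 426 ± 85.7 CPM (SD, n = 41), and Sf3b4 and U2af1 were the least, both at 12.4.

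The sum of CPM over the table was 604723 to 689010 in batch 1 and 554896 to 611613 in batches 2 and 3, and within each nucleus every batch 1 library lay above the others. The mean effect of the batch 1 mice lay below that of batches 2 and 3 in 24 of 36 members, with a median log2 difference of -0.19, against 52.0% of all genes and a median of -0.02. Of the Hnrnp genes 11 of 12 lay lower in batch 1, with a median of -0.39, down to -0.65 for Hnrnpr and -0.63 for Hnrnpc. All 5 Prpf genes and 5 of 6 Srsf genes lay lower too, with Prpf4 at only -0.01. In the other families 1 of 5 Sf3, 1 of 5 Snrp and 1 of 3 U2af genes lay lower, with medians of 0.22, 0.09 and 0.17. In the opposite direction Snrpa lay higher by 1.11, U2af2 by 0.89 and Snrpd2 by 0.68. These batch effects were not tested. Fasted and fed mice were equally many in each batch, and batch was a covariate in the tests below.

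The comparison of fasted with fed libraries asked whether 24 hours without food changed the RNA of splicing factors. In PVN 1 of 36 members was called, Hnrnpc, which fell, and 0 members in ARC, DMH and VMH. In a fit with 1 value for each of the 12 mice over its nuclei, Hnrnpc was again the member that passed. Calls are at an adjusted p under 0.1 in limma. The share of all tested genes called was 0.367% in PVN (0.063% lower), 0.176% in ARC, 0.0103% in DMH, 0.0208% in VMH and 0.237% per mouse (0.128% lower). These shares rest on 35, 17, 1, 2 and 24 genes, and leaving out 1 library or mouse moved them to 2 to 31, 3 to 23, 1 to 2, 1 to 5 and 4 to 35 genes. The lowest counts were 2 in PVN without PVN-100 and 4 per mouse without the mouse of PVN-308.

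Hnrnpc (ENSMUSG00000060373; GRCm38 chromosome 14, 52073377 to 52104028, minus strand) encodes hnRNP C, which binds uridine tracts in nascent transcripts and competes with U2AF at cryptic 3′ splice sites. The plot of Hnrnpc by library shows its CPM in each nucleus. In PVN the fasted libraries held 100.6, 126.9, 131.1, 135.5 and 145.7 CPM. The fed PVN libraries held 147.0, 181.8, 195.6, 231.4 and 234.2 CPM. The groups did not overlap, although the highest fasted value and the lowest fed value were about 1 CPM apart. Means were 128 ± 16.8 (SD, n = 5) and 198 ± 36.4 (n = 5), a log2 change of -0.62 ± 0.12 (SE) with a limma adjusted p of 0.0422. Non-overlap with fasted lower was seen in 0.609% of genes in PVN and in 1 of 36 members.

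In ARC the fasted libraries held 138, 147, 155 and 171 CPM of Hnrnpc. The fed ARC libraries held 157, 207, 214, 227 and 275 CPM, so that the lowest, from batch 1, lay inside the fasted range and the other 4 above it. The log2 change was -0.46 ± 0.13 (limma adjusted p = 0.356). In DMH the 5 fasted libraries held 81.5, 106, 129, 133 and 160 CPM. The 6 fed DMH libraries ran from 102 over a median of 173 to 236 CPM. These groups overlapped through the fed libraries of batch 1, and the log2 change was -0.56 ± 0.14 (limma adjusted p = 0.497). In VMH the 6 fasted libraries ran from 72.5 over a median of 108 to 147 CPM. The fed VMH libraries held 92.2, 180, 191, 200 and 202 CPM. Here 4 of 5 fed libraries lay above every fasted one and the fed library of batch 1 lay among the fasted, with a log2 change of -0.53 ± 0.14 (limma adjusted p = 0.409).

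**Figure D2:**
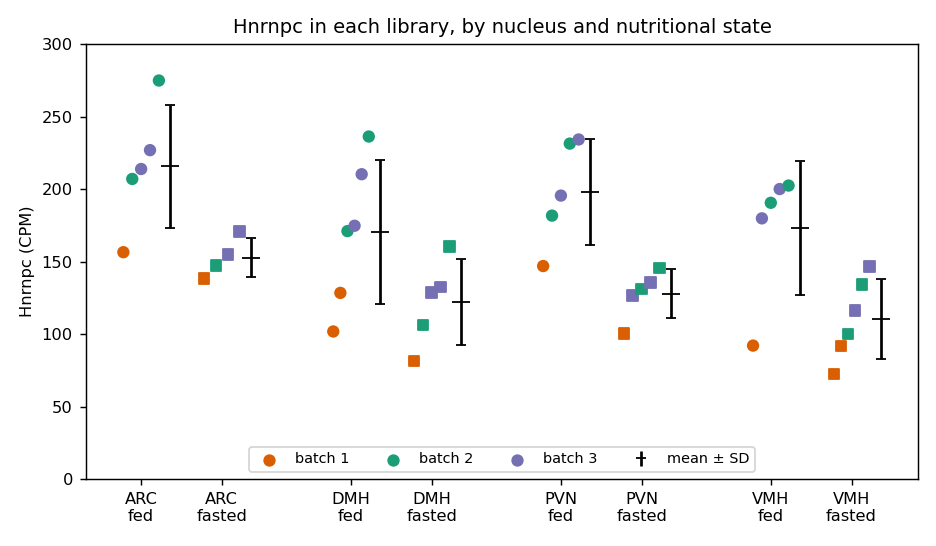
Hnrnpc in CPM in each library by nucleus and nutritional state (circles fed, squares fasted), coloured by batch, with mean ± SD beside each group. Fasted means of 153, 122, 128 and 110 CPM lie below fed means of 216, 170, 198 and 173 CPM in ARC, DMH, PVN and VMH, and batch 1 libraries are the lowest of each group.

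The log2 change of Hnrnpc was below 0 within each batch of each nucleus, from -0.17 in VMH batch 1 to -0.76 in VMH batch 2. Within batches 1, 2 and 3 it was -0.55, -0.57 and -0.70 in PVN, -0.18, -0.69 and -0.44 in ARC, -0.49, -0.62 and -0.55 in DMH, and -0.17, -0.76 and -0.54 in VMH. Batch 1 of ARC and of PVN rested on 1 fasted and 1 fed library. An unadjusted limma p under 0.05 with a change below 0 in all 4 nuclei was found in 0.0987% of genes (9 of 9123) and in 1 member, Hnrnpc. The nuclei came from the same mice, so these 4 changes are not independent.

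Per mouse, Hnrnpc had a log2 change of -0.58 ± 0.09 (limma adjusted p = 0.0167), rank 3 of 10121 genes by p. In batch 1 the effects, with the mean of the 12 mice at 0, were -0.84 and -0.51 in the fasted mice and -0.25 and -0.06 in the fed mice. Those of -0.84 and -0.06 came from mice with 1 library each, VMH-85 and DMH-92. In batch 2 the effects were -0.30 and 0.02 against 0.37 and 0.70, and in batch 3 -0.10 and -0.02 against 0.44 and 0.55. Both fasted mice thus lay below both fed mice in every batch, a separation seen in 1.42% of genes and in 1 of 36 members. Across batches the groups overlapped, since the fed mice of batch 1 were as low as fasted mice of the others. Without batch in the fit the same log2 change of -0.58 had a limma adjusted p of 0.943, and that in PVN of -0.62 one of 0.6248. The call per mouse was kept without any 1 of the 12 mice, at adjusted p between 0.00990 and 0.0830. The call in PVN was lost without fasted library PVN-100, PVN-101 or PVN-311 or fed library PVN-127 or PVN-308 (the number names the mouse), with adjusted p up to 0.157.

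**Figure D3:**
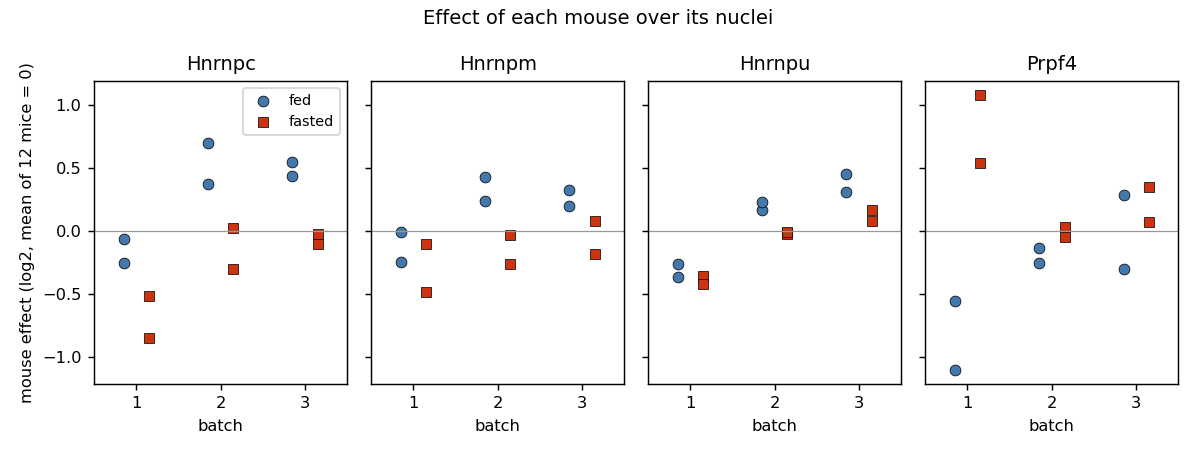
Effect of each of the 12 mice over its nuclei (log2, mean of the mice at 0) for Hnrnpc, Hnrnpm, Hnrnpu and Prpf4, by batch; circles are fed and squares fasted mice. For Hnrnpc the fasted mice lie below the fed mice of their batch, and for Prpf4 the widest gap between fasted and fed mice is in batch 1. Mice 85 and 92 of batch 1 had 1 library each.

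Cell type markers were read beside these changes. In PVN the summed endothelial markers (7 of 10 measured) ran from 236 to 378 CPM in fasted and 223 to 298 in fed libraries, and the oligodendrocyte markers (7 of 10 measured) from 363 to 599 and 401 to 637. In ARC the endothelial sum did not overlap between fasted (64.5 to 85.9 CPM) and fed libraries (90.5 to 109). In VMH the astrocyte sum (5 of 10 measured) was 273.4 to 337 in fasted against 230 to 272.7 in fed libraries. Among single genes, non-overlap in either direction was seen in 2.13% in ARC and 0.5% in VMH. None of the 25 oligodendrocyte, microglia, astrocyte and endothelial markers passed the test in any nucleus. The part of these sums in the change of Hnrnpc was not tested.

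The RefSeq promoter of Hnrnpc is shown because it belongs to the member that passed; no binding or methylation was measured. The 250 bases upstream of its start, chr14:52104022-52104271 of GRCm38.p6, minus strand, are printed 5′ to 3′ with each match of CCAAT, on either strand, in capitals.
Hnrnpc: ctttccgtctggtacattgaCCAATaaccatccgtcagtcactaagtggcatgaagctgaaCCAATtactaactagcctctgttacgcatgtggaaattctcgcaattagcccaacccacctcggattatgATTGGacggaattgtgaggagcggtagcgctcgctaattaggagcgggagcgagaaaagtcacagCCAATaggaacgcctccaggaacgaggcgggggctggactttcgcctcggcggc
The 4 matches, of the letters that the factor NF-Y binds, begin 230, 189, 119 and 54 bases before the start. As many or more were found in the same 250 bases of 0.840% of 32851 promoter windows, among them 1 window each of Hnrnpr and Hnrnpa1.

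Promoter windows of 300 bases were given for 30 members (39 windows). They held a median of 63.3% G and C, against 52.7% over all windows, and 26.0 CG steps against 7.0. The letters CCGGAAG, the core that ETS factors bind, were found on either strand in 33.3% of member windows against 8.86% of all. They occurred in promoters of Sf3a3, Sf3b3, Sf3b6, Snrpe, Snrpg, Srsf4, Srsf11, Hnrnpd and Hnrnpf. The letters CCAAT were in 38.5% against 37.4%, TATAAA in 12.8% against 13.6%, and GAANNTTC, the core of the heat-shock element, in 7.69% against 7.86%. The cyclic AMP response element TGACGTCA was in 5.13% against 1.79%, and TGTTNAC, the core that forkhead factors bind, in 0% against 10.4%. The 300-base window of Hnrnpc held CCAAT and none of the other motifs searched. G and C content was not held constant in these shares, and its part in them was not tested.

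The other hnRNP genes did not pass the test in any nucleus or per mouse. Of the 12 Hnrnp genes 9 had a log2 change below 0 per mouse, with a median of -0.06, against a median of 0.01 over all genes. In ARC 9 of 12 were below 0 with a median of -0.23, in DMH 9 of 12 with -0.06, in PVN 7 of 12 with -0.05 and in VMH 7 of 12 with -0.06. Hnrnpm and Hnrnpu, with Hnrnpc, Hnrnpul2, Srsf3, Srsf4 and Srsf9, were below 0 in all 4 nuclei, 7 of 36 members against 9.89% of genes.

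Hnrnpm, which acts on exon inclusion through GU-rich elements, had a log2 change of -0.32 ± 0.10 per mouse (limma adjusted p = 0.331). In DMH its fasted libraries held 79.5, 79.6, 100.3, 100.8 and 119.7 CPM and its 6 fed libraries ran from 108 over a median of 116 to 161. The groups overlapped through 1 fasted library, and the log2 change was -0.42 ± 0.14 (limma adjusted p = 0.695). Within batches it lay between -0.72 (ARC batch 1) and 0.50 (PVN batch 1). Hnrnpu had a smaller log2 change per mouse, -0.18 ± 0.05 (limma adjusted p = 0.329). In ARC Hnrnpu was 376 ± 54.3 CPM in fasted (n = 4) and 469 ± 103 in fed libraries (n = 5), and the groups overlapped through the fed library of batch 1, at 311.3 CPM. With libraries in place of mouse values and the mouse as a replicate block, the limma adjusted p values were 0.0166 for Hnrnpm and 0.0349 for Hnrnpu. The consensus correlation of that block was -0.003, so the fit took libraries of 1 mouse nearly as independent. With the 10 mice that had 3 or more nuclei the limma adjusted p values were 0.0364 and 0.0821. Both calls thus depend on how the mice were combined.

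Hnrnpr, a neuronal mRNA-binding hnRNP, had log2 changes of -0.46 ± 0.14 in ARC and -0.36 ± 0.14 in PVN (limma adjusted p = 0.410 and 0.418). Its changes in DMH and VMH were -0.04 ± 0.13 and 0.06 ± 0.19, and that per mouse -0.14 ± 0.12, which ran from -0.25 without the mouse of library VMH-85 to -0.073 without that of VMH-127. Hnrnpdl, a relative of hnRNP D, had a log2 change of 0.31 ± 0.12 in ARC, with 227 ± 31.1 CPM in fasted and 181 ± 23.0 in fed libraries (limma adjusted p = 0.551), and of 0.20 ± 0.07 per mouse. Neither gene separated fasted from fed libraries in any nucleus.

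**Figure D4:**
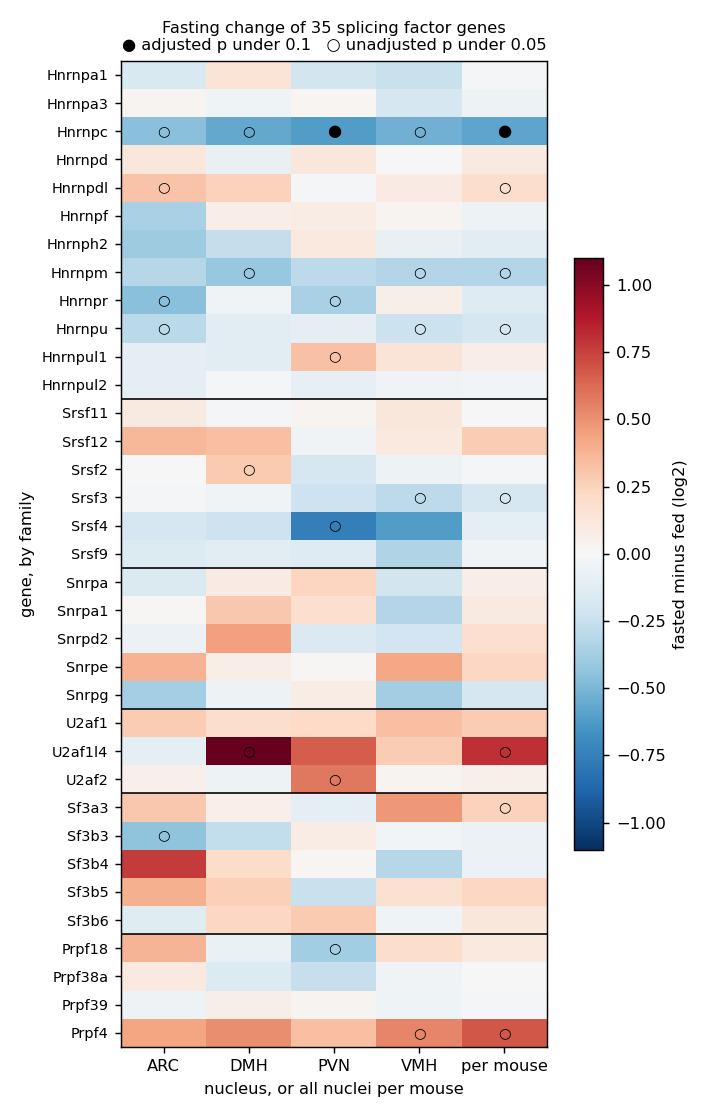
Log2 change of 35 of the 36 members on fasting in each nucleus and per mouse, by family, with red for higher and blue for lower in fasted mice. Filled circles mark an adjusted p under 0.1, for Hnrnpc in PVN and per mouse, and open circles an unadjusted p under 0.05.

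SR protein genes gave 0 calls among 6 members. Srsf3, the smallest SR protein and a regulator of mRNA export as well, had a log2 change of -0.29 ± 0.12 in VMH (limma adjusted p = 0.685) and -0.18 ± 0.07 per mouse. In VMH it held 118 ± 34.5 CPM in 6 fasted and 151 ± 29.0 in 5 fed libraries, with overlapping ranges of 81.2 to 168 and 105 to 178. Srsf2 was 325 ± 41.2 CPM in fasted and 262 ± 34.4 in fed DMH, a log2 change of 0.28 ± 0.11 (limma adjusted p = 0.695), and its change per mouse was -0.02 ± 0.06. Srsf4, low and variable, had -0.75 ± 0.36 in PVN and -0.11 ± 0.29 per mouse.

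Among the 5 Snrp genes no member reached even an unadjusted limma p under 0.05 in any nucleus or per mouse. The log2 changes of the 5 Snrp genes lay between -0.18 and 0.23 per mouse, with a median of 0.10, and between -0.39 and 0.45 in the nuclei. Among the U2af genes, which recognise the 3′ splice site, U2af1l4, a paralogue of the small subunit U2af1, had the highest change of any member per mouse, 0.80 ± 0.28 (limma adjusted p = 0.402). This value fell to 0.52 without the mouse of library DMH-92, which had 1 library and an effect of -1.56, and was 0.47 with the mice of 3 or more nuclei. In DMH U2af1l4 was 13.8, 15.8, 19.5, 19.7 and 26.8 CPM in fasted libraries and ran from 4.05 over a median of 10.2 to 14.7 CPM in the 6 fed ones. Only the lowest fasted and the highest fed value crossed, and the log2 change was 1.09 ± 0.38 (limma adjusted p = 0.695). In ARC it was -0.09 ± 0.40. U2af2, the large subunit, had 0.58 ± 0.24 in PVN (limma adjusted p = 0.423) and 0.06 ± 0.14 per mouse. All 3 U2af genes were above 0 in PVN, VMH and per mouse, with none passing.

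Of the Sf3 genes, Sf3b3, a large scaffold subunit of SF3B, had a log2 change of -0.45 ± 0.19 in ARC, and Sf3b4 had 0.77 ± 0.38 there (limma adjusted p = 0.571 and 0.615). Sf3a3 was 0.25 ± 0.12 per mouse (limma adjusted p = 0.547). Among the Prpf genes, Prpf4 of the U4/U6 snRNP was above 0 in every nucleus, with log2 changes of 0.43 ± 0.26, 0.51 ± 0.25, 0.33 ± 0.25 and 0.54 ± 0.22 in ARC, DMH, PVN and VMH. With 1 library left out they stayed above 0, the lowest being 0.16 for ARC (without ARC-86 or ARC-111), 0.27 for DMH (without DMH-86), 0.073 for PVN (without PVN-86 or PVN-111) and 0.32 for VMH (without VMH-111). Per mouse it had 0.68 ± 0.22 (limma adjusted p = 0.356). With the mouse as a replicate block over libraries, taken nearly as independent as given above, Prpf4 was called (0.47, limma adjusted p = 0.0346). With the mice of 3 or more nuclei Prpf4 was not called (0.38, limma adjusted p = 0.243). The largest changes were in batch 1, where Prpf4 had 1.19 to 1.38 in the 4 nuclei, against -0.17 to 0.47 in batches 2 and 3. In VMH Prpf4 ran from 31.7 over a median of 47.2 to 79.1 CPM in fasted libraries, and the fed libraries held 25.6, 28.5, 29.1, 31.7 and 48.2. Prpf4, Snrpe and U2af1 were the members above 0 in all 4 nuclei, 3 of 36 against 10.6% of genes.

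Below the adjusted threshold, an unadjusted limma p under 0.05 was met by 5 of 36 members in ARC (8.10% of genes), 4 in DMH (6.62%), 6 in PVN (9.97%), 5 in VMH (6.98%) and 8 per mouse (9.07%). Of the 36 log2 changes 20, 18, 18 and 20 were below 0 in ARC, DMH, PVN and VMH, with medians of -0.06, 0.02, -0.01 and -0.04 against 0.02, 0.01, 0.01 and -5.18e-05 over all genes. The medians of the families together thus lay within 0.1 of those of all genes in each nucleus.

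A further test asked whether the fasting change differed between nuclei. This limma F-test called 0 of 36 members and 0% of 10121 genes, and 0 members had an unadjusted p under 0.05 against 5.11% of genes. For Hnrnpc the unadjusted p was 0.853 (adjusted p = 0.995), with 95% intervals of the log2 change of -0.87 to -0.37 in PVN, -0.82 to -0.24 in VMH, -0.86 to -0.26 in DMH and -0.73 to -0.18 in ARC. The lowest p of a member was 0.0659, for Srsf2 (adjusted p = 0.934).

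The next comparison asked which splicing factors differ in level between the nuclei. Of 36 members 12 passed the limma F-test over the 4 nuclei, against 43.2% of all genes, so the share of members (12 of 36) was below that of the table. They were 6 of 12 Hnrnp genes (Hnrnpa1, Hnrnpa3, Hnrnpc, Hnrnpdl, Hnrnpf and Hnrnpul2), 2 of 5 Prpf (Prpf18 and Prpf38a), 2 of 5 Sf3 (Sf3a3 and Sf3b5), 2 of 6 Srsf (Srsf3 and Srsf9), 0 of 5 Snrp and 0 of 3 U2af. With the mice left out in turn, the F-test call of Prpf18 was lost in 9 of 12 cases, those of Hnrnpdl and Srsf9 in 6 each, that of Hnrnpul2 in 2 and that of Sf3b5 in 1. Those of Hnrnpdl, Srsf9 and Hnrnpul2 were also lost without batch, and those of Hnrnpdl and Srsf9 with the mouse as a fixed block. The other 7 members kept their call in all alternatives run. None of the 36 members reached a log2 difference of 1 between a nucleus and the others, which 5.83%, 2.81%, 6.41% and 7.77% of genes did with an adjusted p under 0.1 in ARC, DMH, PVN and VMH. With shares this low, a count of 0 among 36 members says little, and no family was tested for it. Between 2 single nuclei, Prpf38a was higher in ARC than in VMH by 0.84 ± 0.21 on the log2 scale. Sf3b5 was higher in ARC than in PVN by 0.75 ± 0.22.

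Against the mean of the other nuclei, ARC was higher in 7 members (9.73% of genes higher) and lower in 0 (11.7% lower). The count in ARC was 3 without the mouse of library ARC-305 and 4 without that of ARC-111. DMH was called in 0 (14.9% in either direction). PVN was higher in 2 (10.4%) and lower in 1 (11.6%), and VMH was higher in 3 (16.3%) and lower in 9 (16.6%). Over all 36 members the median log2 difference was 0.13 in ARC, with 27 of 36 above 0, and -0.15 in VMH, with 23 below 0. Over all genes these medians were -0.0018 and -0.02. The 2 nuclei at the ends of the order were therefore ARC and VMH, and comparisons of a nucleus with the others share libraries.

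Srsf3 had the lowest p of the members (limma F-test, adjusted p = 2.9e-06). It held 191 ± 19.6 CPM in ARC (SD, n = 9), 176 ± 35.5 in PVN (n = 10), 169 ± 23.5 in DMH (n = 11) and 133 ± 34.9 in VMH (n = 11). VMH lay below the other nuclei by 0.42 ± 0.06 on the log2 scale (limma adjusted p = 4.82e-07). ARC lay above them by 0.27 ± 0.07 (limma adjusted p = 0.00225), but ARC, PVN and DMH, neighbours in the order, did not differ from each other beyond their spread (limma adjusted p = 0.226 to 0.965).

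Hnrnpa1 followed, with 292 ± 31.7 CPM in ARC, 272 ± 76.8 in PVN, 219 ± 57.0 in DMH and 193 ± 47.0 in VMH. Its log2 difference was 0.39 ± 0.09 in ARC and -0.39 ± 0.09 in VMH (limma adjusted p = 0.00116 and 0.000314). No neighbours in this order differed beyond their spread, with limma adjusted p of 0.379 for ARC and PVN, 0.123 for PVN and DMH and 0.288 for DMH and VMH. Hnrnpc was highest in ARC too, at 188 ± 45.5 CPM against 163 ± 45.6 in PVN, 148 ± 47.3 in DMH and 139 ± 48.0 in VMH. The log2 difference of Hnrnpc was 0.32 ± 0.08 in ARC and -0.22 ± 0.07 in VMH (limma adjusted p = 0.00293 and 0.0229), with no neighbouring pair in the order apart (limma adjusted p = 0.179 to 0.708).

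Sf3a3, of the SF3A complex, held 51.2 ± 13.9 CPM in ARC, 42.7 ± 9.4 in PVN, 42.3 ± 10.8 in DMH and 32.4 ± 8.5 in VMH. Prpf38a, a factor of spliceosome activation, held 35.7 ± 8.3, 29.0 ± 12.4, 29.8 ± 7.8 and 20.02 ± 6.1 CPM in the same nuclei. Both were lowest in VMH, with log2 differences of -0.53 ± 0.13 and -0.63 ± 0.17 (limma adjusted p = 0.00166 and 0.00301). In ARC they were 0.41 ± 0.14 and 0.49 ± 0.18 (limma adjusted p = 0.0404 and 0.0495). The call of Sf3a3 in ARC was lost without the mouse of library ARC-111 or ARC-305, and that of Prpf38a without 4 of the 12 mice in turn, with adjusted p up to 0.152 and 0.128.

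A different order was seen for Sf3b5, a small subunit of SF3B. It held 20.9 ± 5.7 CPM in ARC, 18.0 ± 4.5 in VMH, 16.7 ± 5.3 in DMH and 12.7 ± 4.0 in PVN. PVN lay below the other nuclei by 0.55 ± 0.17 on the log2 scale (limma adjusted p = 0.0181). Its log2 difference in ARC, 0.45 ± 0.18 (limma adjusted p = 0.0736), lost the call without 6 of the 12 mice in turn, with adjusted p up to 0.195. Prpf18, a second-step factor, had 0.39 ± 0.14 in ARC (limma adjusted p = 0.0404), a call lost without the mouse of library ARC-111 or ARC-305.

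In PVN, Hnrnpf, which binds G-runs, held 29.3 ± 3.5 CPM, against 24.9 ± 5.2 in ARC, 21.6 ± 5.9 in DMH and 19.9 ± 5.6 in VMH. The log2 difference was 0.44 ± 0.14 in PVN and -0.33 ± 0.13 in VMH (limma adjusted p = 0.0181 and 0.0559). The call in VMH was lost without 6 of the 12 mice in turn and with the mouse as a fixed block. Reads of Hnrnpf can come from other genes, as given above, so that its order is uncertain. Hnrnpa3 was 0.18 ± 0.07 higher in PVN (limma adjusted p = 0.0724), a call lost without 4 of the 12 mice in turn, and lower in VMH by 0.22 ± 0.07 (limma adjusted p = 0.0156).

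Higher in VMH were Srsf9, Hnrnpdl and Hnrnpul2. Srsf9 held 39.2 ± 11.2 CPM in VMH, 31.7 ± 7.3 in ARC, 29.6 ± 11.8 in DMH and 28.1 ± 8.1 in PVN, a log2 difference of 0.45 ± 0.16 in VMH (limma adjusted p = 0.0266). Without the mouse of library VMH-86 or VMH-125 the call of Srsf9 was lost, with adjusted p up to 0.122. Hnrnpdl was 226 ± 39.3 CPM in VMH and between 191 and 202 elsewhere, a log2 difference of 0.19 ± 0.07 (limma adjusted p = 0.0349). Hnrnpul2 was 246 ± 33.8 CPM in VMH and 240 ± 38.6 in DMH, against 215 in ARC and in PVN, a difference of 0.16 ± 0.07 (limma adjusted p = 0.0715). Without batch in the fit the calls of Hnrnpdl and Hnrnpul2 were lost (limma adjusted p = 0.107 and 0.170), as was that of Hnrnpa3 in PVN (0.114), and without 1 mouse they were lost in 1 and 6 of 12 cases. Prpf39 and Srsf2, lower in VMH by 0.23 ± 0.08 and 0.17 ± 0.07 on the log2 scale (limma adjusted p = 0.0299 and 0.0547), did not pass the F-test over the nuclei. Prpf39 did pass it with the mouse as a fixed block and without the mouse of library VMH-111 or VMH-311, and Srsf2 without that of VMH-86 or VMH-127. The call in VMH of Srsf2 was also lost without batch, with the mouse as a fixed block and without 4 of the 12 mice in turn.

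**Figure D5:**
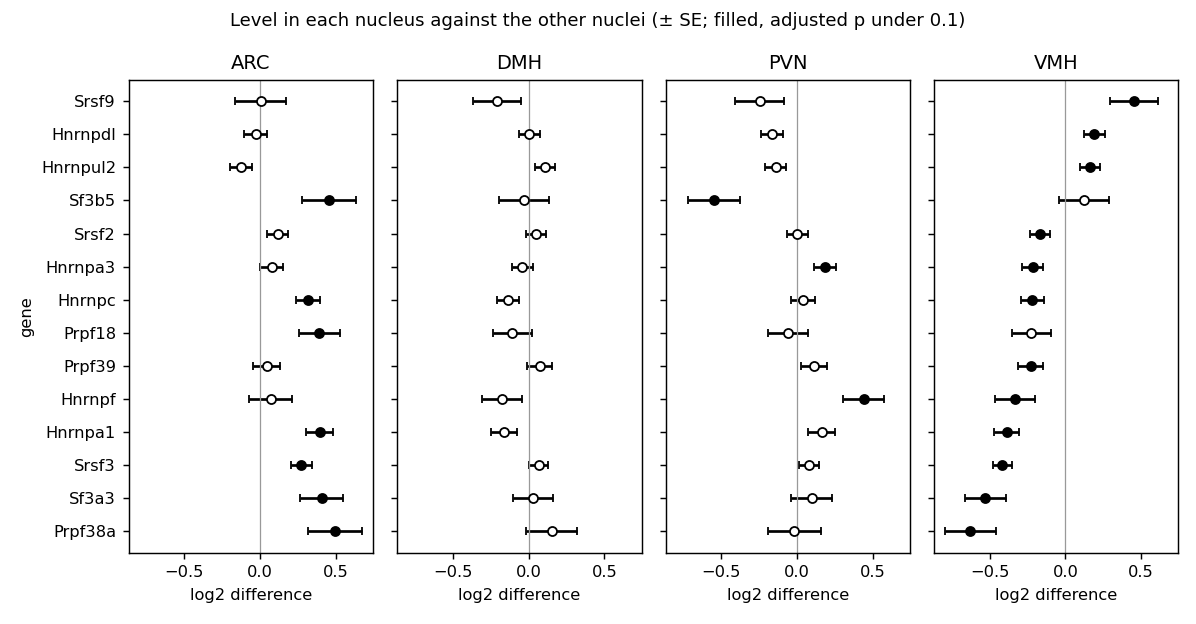
Log2 difference of the level in each nucleus from the mean of the other nuclei, ± SE, for the 14 members called in any nucleus; filled points have an adjusted p under 0.1. Most are highest in ARC or lowest in VMH, Sf3b5 is low and Hnrnpf high in PVN, and no point is filled in DMH.

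Of the 22 calls of a nucleus against the others, 21 had the same sign in each of the 3 batches. The exception was Hnrnpf in VMH, at -0.66 to 0.12. Summed marker levels also moved with the nuclei. The oligodendrocyte markers were 1151 to 1807 CPM in VMH, 363 to 637 in PVN, 261 to 805 in ARC and 464 to 1603 in DMH, and the endothelial markers were 223 to 378 CPM in PVN and 64.5 to 199 elsewhere. The astrocyte markers were 162 to 229 CPM in ARC and 230 to 415 elsewhere. Those of ependymal cells and tanycytes (3 of 7 measured) were 24.3 to 71.2 in ARC and 26.4 or less elsewhere. Most of that sum in ARC was Col23a1, at 20.6 to 63.9 CPM. The others were not highest in ARC: Foxj1 reached 8.0 CPM there and 13.3 in PVN, and Crym 10.3 there and 19.0 in VMH. The neuron markers (2 of 8 measured) were 436 to 550 CPM in ARC and PVN and 572 to 868 in DMH and VMH, and the microglia markers (6 of 10 measured) overlapped in all 4 nuclei. The part of these cell type markers in the level differences of the splicing factors was not tested.

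Genes of the spliceosome and of splicing control outside these families were counted in the same fits. Of 59 listed spliceosome components 26 were measured, and 0 passed for fasting in any nucleus or per mouse. Of 61 listed splicing regulators 28 were measured, with 1 lower in PVN (0.063% of all genes lower) and 2 lower per mouse (0.128%). Tardbp, which encodes TDP-43, a repressor of cryptic exons, had log2 changes of -0.55 ± 0.10 in PVN and -0.43 ± 0.07 per mouse (limma adjusted p = 0.0390 and 0.0346). Qk, a regulator of splicing in glia, had -0.32 ± 0.07 per mouse (limma adjusted p = 0.0776). Without batch as a covariate all 3 calls were lost (limma adjusted p = 0.738 for Tardbp in PVN and 0.943 for both genes per mouse). Tardbp also lost its call in PVN without the library PVN-100, PVN-308 or PVN-311 (limma adjusted p = 0.151, 0.155 and 0.112), and per mouse without the mouse of PVN-100, PVN-125, PVN-308 or PVN-311 (limma adjusted p = 0.165, 0.161, 0.125 and 0.175). The call of Qk was lost on leaving out any of 10 of the 12 mice (limma adjusted p of 0.104 to 0.261), and both genes kept a negative change in every alternative run. Tardbp and Qk were named after their values were seen, being the only listed genes called for fasting. In level between nuclei 7 of 26 and 14 of 28 of these genes passed, against 43.2% of all genes.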

How the data were processed

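The authors deposited a table of CPM values (counts scaled to the mapped reads of each library) per Ensembl gene for laser-captured nuclei. By the study's methods and the labels, RNA was amplified (Ovation RNA-Seq V2) and single-end reads were mapped to GRCm38. The submitters' processing notes name TopHat2 2.0.11, Cufflinks 2.2.1, CASAVA 1.7, edgeR and limma; the read counter is not given in the sources used here. Amplified reads are not independent molecules. The authors excluded outlier libraries in their analysis, and where these are also missing from the deposited values, the spread can be lower.

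Of 43 samples 41 were matched to a column by nucleus, state and mouse number; 2 columns fitted no sample's labels and stayed unused, and 2 samples (PVN of mice 85 and 92) were not analysed here. The table held 10127 genes, 9891 with a symbol in GENCODE M21, and 31 of the 33 members not analysed here fall in 1 range of identifiers in which the table used has no gene. CPM sums over these genes were 554896 to 689010.

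Tests used limma 3.58.1 in R 4.3.3 (lmFit, eBayes with a trend) on log2(CPM + 0.5), with Benjamini-Hochberg adjustment over all genes, 2-sided, at an adjusted p under 0.1. Fold changes of low genes are understated on this scale. A gene entered a test if it reached 1 CPM in a number of libraries equal to the smaller group's size. Fasting was tested in each nucleus with batch as a covariate, and per mouse on the mouse effects of an additive fit of nucleus and mouse, with batch. Levels and the difference of fasting changes came from a fit of 8 group means and batch with the mouse as a block (duplicateCorrelation). Nuclei of 1 mouse are paired by the animal's number in the labels; the consensus correlation was -0.003, and the median r of deviations over 57 pairs was 0.06, with 13 over 0.1. Fasted and fed mice are separate animals, with no pairing between them. The fits were tested on simulated data that held no batch or mouse effect, so that test does not cover how the calls depend on batch.

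Alternatives were pseudocounts of 2 and 0.1, no filter, median centring, no batch, other treatments of the mouse, and leaving out each library or mouse. Members named singly were Hnrnpc, those called for fasting, the 3 lowest p values in each fasting fit, the 3 largest called rises and falls of each nucleus, and the highest and lowest member of each family (Snrpn, also in the rule, was not analysed here); Hnrnpa1, Prpf18 and other members outside this rule were named after their values were seen. 1 member enters counts and medians but is not reported by name here or drawn. The members and lists were chosen with earlier results of these data known. RefSeq promoter windows (GRCm38.p6) were matched by symbol.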

Additional observations from a re-analysis of the deposited data

Results flagged for a closer look

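Among the 24 named members in 8 groups of libraries (192 sets), 15 sets held a library whose gap to the nearest other exceeded Dixon's 95% value for its group size; chance alone flags about 1 in 20. Library VMH-111 (fed, batch 1) was low for Hnrnpc at 92.2 CPM, with the others at 180 to 202, and for Hnrnpa3 at 149 CPM, with the others at 248.95 to 272.6. Library ARC-86 (fasted, batch 1) was low for Hnrnpul2 at 160 CPM, and PVN-86 for Srsf2 at 142 CPM, with the others at 304.7 to 332.1. Batch 1 libraries were high for Hnrnpf in VMH-86 (32.8 CPM), Sf3b4 in DMH-92 (21.8 CPM), Snrpd2 in ARC-111 (76.8 CPM) and PVN-111 (72.0 CPM), and U2af2 in PVN-111 (45.7 CPM). In batch 2, Sf3b5 was high in PVN-125 (20.3 CPM). In batch 3, Prpf39 was high in VMH-311 (111.3 CPM), Prpf4 in VMH-308 (48.2 CPM) and Srsf4 in DMH-313 (25.9 CPM), while Prpf38a was low in ARC-311 (29.8 CPM) and Snrpe in ARC-308 (7.67 CPM).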

How the results depend on the processing

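The counts of called members equalled the main count or lay within 1.5 times of it in 181 of 194 alternative settings. Among the 181 were the counts that were 0 throughout, those for fasting in ARC, DMH and VMH and for the difference of the fasting change between nuclei. Without batch the fasting calls fell to 0 in PVN and 0 per mouse, Hnrnpr turned to 0.031 in DMH and -0.044 in VMH, and Srsf3 to 0.018 in DMH; the cause was not tested. Over all genes it left 3 calls in PVN (35 with batch), 1 per mouse (24) and 0 in ARC (17), where a pseudocount of 0.1 gave 4 and no filter 5. With libraries and the mouse as a replicate block, a fit that took libraries of 1 mouse nearly as independent, 4 members were called for fasting (322 genes). With the mice of 3 or more nuclei 3 members were called per mouse (170 genes). Without a replicate block, or with the mouse as a fixed one, the counts by nucleus stayed within 1.5 times. Leaving out 1 library or mouse gave 0 to 1 called members for fasting in PVN, 3 to 7 for level in ARC (4 without the mouse of ARC-111, 3 without that of ARC-305), 0 to 1 in DMH (1 without that of DMH-86) and 2 to 5 in PVN (5 without that of PVN-125). It also turned log2 changes near 0: U2af2 over -0.083 to 0.19 in VMH, -0.24 to 0.077 in DMH, -0.20 to 0.30 in ARC and -0.016 to 0.15 per mouse, Srsf3 over -0.087 to 0.0047 in DMH and -0.063 to 0.0062 in ARC, U2af1l4 over -0.36 to 0.24 in ARC, and Hnrnpr over -0.076 to 0.014 in DMH and -0.14 to 0.24 in VMH. Fasting calls in ARC, DMH and VMH were 0 of 36 under every alternative run. At 1.94 to 8.23 M reads, low members such as Srsf4 rest on few reads, and how small a change could be detected in them was not tested.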
